A study of Danio rerio with 15 samples.

Results

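The hox genes encode homeodomain transcription factors that give cells their position along the head to tail axis. All genes of the deposited tables whose name is hoxa, hoxb, hoxc or hoxd followed by a paralog number and the letter a or b were taken, and 36 of 23009 genes met this rule. They were grouped by paralog number into 10 anterior members (1 to 3), 15 central members (4 to 8) and 11 posterior members (9 to 13). Of 49 zebrafish symbols of this form in a RefSeq gene table (assembly GRCz12tu), 36 were matched. The other 13 have no entry of that name in the deposited values, so their level is not known here. They are hoxa4a, hoxa9a, hoxa11a, hoxb10a, hoxb13a, hoxc9a, hoxc10a, hoxc11a, hoxc12a, hoxc13a, hoxc11b, hoxc12b and hoxc13b, all but hoxa4a with a posterior number. The posterior members were therefore 5 genes of the A clusters, 5 of the D cluster and hoxb9a, with no gene of the C clusters.

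RNA was sequenced from pools of 20 heads of wild-type zebrafish embryos at 2 days post-fertilization, and each library came from 1 pool. There were 5 libraries per group, and the embryos were injected with the tracer dye phenol red (S1 to S5), with a guide RNA against ncapg2 (S6 to S10), or with this guide RNA together with Cas9, the nuclease it directs (S11 to S15). No group received Cas9 without the guide, so that Cas9 and editing of ncapg2, a gene of the chromosome-compacting complex condensin II, cannot be told apart. The sources used here do not say where the heads were cut from the trunk, or how many cells of a pool carried an edited allele.

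In vertebrates the hox genes lie in clusters, and their order on the chromosome follows their order of action along the body. Low paralog numbers are expressed from the hindbrain backwards and set the identity of rhombomeres, cranial nerves and pharyngeal arches, while middle numbers begin in the caudal hindbrain, spinal cord and anterior trunk. High numbers act in the posterior trunk and tail, and those of the A and D clusters act again in the paired fins, where they pattern the outgrowing fin bud. The forebrain and midbrain are free of hox expression. Teleosts carry duplicated clusters, which the final letter a or b of a name marks.

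The libraries held between 34.97 and 49.3 M reads (M, mega) assigned to genes, and counts below are normalized counts, that is, a gene's count divided by 1 size factor per library. Expression of ncapg2 with phenol red, guide RNA and guide RNA plus Cas9 was 856 ± 69.7, 912 ± 73.7 and 428 ± 48.4 (SD, n = 5). All 17 listed forebrain, midbrain and eye markers were present in every library, which does not show that trunk tissue was absent. The libraries S1, S6 and S11, 1 of each group, stood apart from the other 12: over 18827 genes outside the hox family they varied together, with correlations of their deviations from the group mean between 0.80 and 0.85. Sets were sought only in the form of 1 library per group, so this form was fixed by the search. For the other 12 libraries the best grouping joined S2, S7 and S12, and S3, S8 and S13. It also joined S4, S9 and S14, and S5, S10 and S15. Correlations within these sets lay between 0.014 and 0.65, with the lowest in the set of S2, S7 and S12. The labels do not say what the libraries of a set had in common. Because these are bulk pools, fewer cells of a type and less RNA per cell cannot be told apart. Transcript lengths were not at hand, so tests and fold changes compare libraries. Where genes are ranked by counts, or a share of hox counts is given, these are reads and not levels per length.

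The summed counts of the 3 classes behaved differently between pools. Summed over the 10 anterior members, the normalized count was 5839, 5484, 6016, 5717 and 6044 with phenol red, 6310.4, 5852, 5507, 5941 and 5285 with guide RNA, and 6404, 6219.9, 6084, 5479 and 5401 with guide RNA plus Cas9. The highest library held 1.21 times the count of the lowest, and the groups overlapped throughout. For the 15 central members the sum was 4935, 3177, 3742, 3169 and 3211 with phenol red, 5623, 4087, 3359, 3476 and 2972 with guide RNA, and 4785, 4489, 3725, 3182 and 2717 with guide RNA plus Cas9. Here S1, S6, S11 and S12 were the highest libraries, S15 was the lowest, and the highest exceeded the lowest 2.07-fold. Over the 11 posterior members it was 227, 93.6, 176, 119.8 and 67.04 with phenol red, 224, 109.7, 115, 87.2 and 94.5 with guide RNA, and 252, 145, 127, 83.8 and 79.2 with guide RNA plus Cas9. The top 3 libraries were again S1, S6 and S11, with S3 next, and the range was 3.75-fold.

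The group means of each class differed by less than the SD within the groups. The anterior sum was 5819.9 ± 231, 5779 ± 398 and 5918 ± 452 (mean ± SD, n = 5) with phenol red, guide RNA and guide RNA plus Cas9 in that order, the central sum 3647 ± 759, 3903 ± 1041 and 3779.7 ± 867, and the posterior sum 137 ± 64.6, 126 ± 55.9 and 137 ± 69.8. The posterior members took 1.39 ± 0.54% of all hox counts with phenol red, 1.25 ± 0.35% with guide RNA and 1.35 ± 0.51% with guide RNA plus Cas9 (SD, n = 5), a ratio within a library that the size factor does not touch. Without S1, S6 and S11 these shares were 1.22%, 1.11% and 1.14% (n = 4). Since longer transcripts yield more fragments, the shares describe reads and not molecules. The posterior sum rested on between 74 and 274 reads per library, against 2619 to 6020 for the central sum and 4725 to 7115 for the anterior sum.

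Divided by single paralog number, the sums of the 15 libraries ranged more widely from number 5 on than for numbers 1 to 4. The lowest, median and highest library held 402, 481 and 718 counts for number 1, 742, 778 and 856 for number 2, 4086, 4537 and 4883 for number 3, and 1195, 1331 and 1694 for number 4, with the highest between 1.154 and 1.787 times the lowest. For number 5 they held 1229, 1677 and 2886, for number 6 205, 295 and 705, for number 7 7.25, 11.9 and 28.0, and for number 8 75.2, 120 and 309, ranges of 2.35-fold, 3.44-fold, 3.87-fold and 4.11-fold. For number 9 they held 18.9, 27.8 and 66.1, for number 10 12.8, 27.1 and 44.1, for number 11 9.97, 23.0 and 60.6, for number 12 4.32, 9.17 and 22.3, and for number 13 14.8, 31.1 and 80.3. These posterior ranges ran from 3.43-fold for number 10 to 6.08-fold for number 11, on far fewer reads than those of the central numbers. In each of the 13 numbers the 3 group means differed by less than the largest SD of a group.

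**Figure D1:**
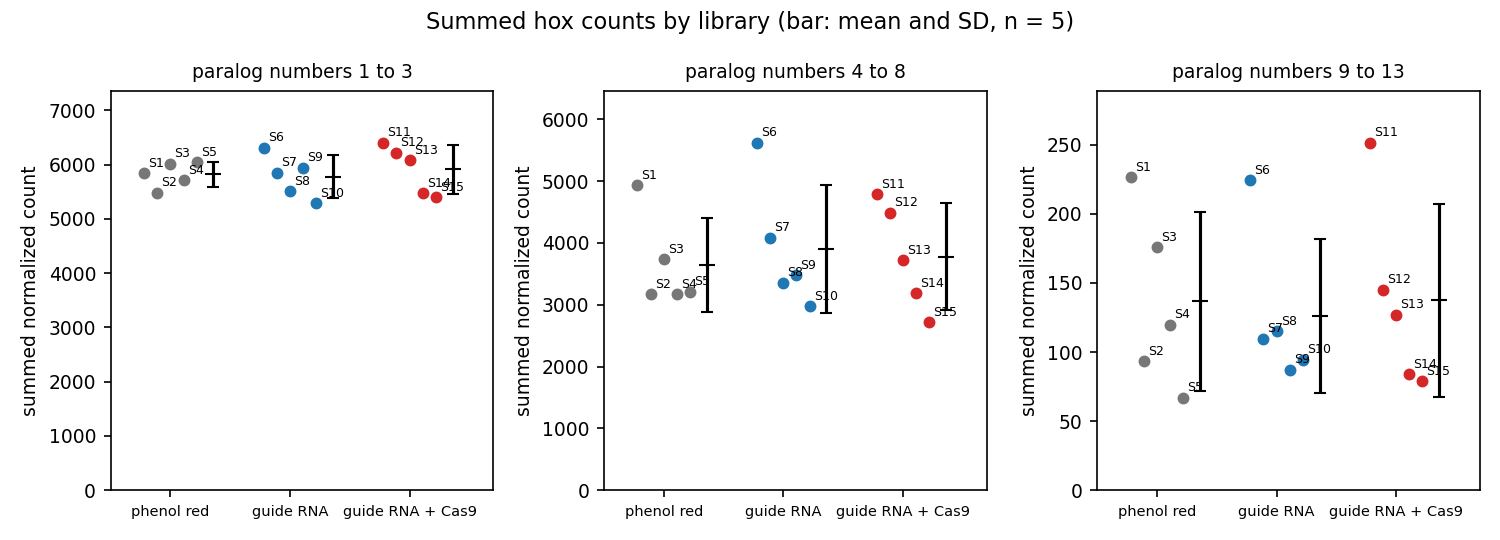
Summed normalized counts of the anterior, central and posterior hox genes (vertical axes, each starting at 0) in the 15 libraries by group (horizontal axis); points are libraries and bars the mean and SD of 5. The anterior sums lie between 5285 and 6404, while S1, S6 and S11 stand above the other libraries in the posterior panel, and S1, S6 and S11 with S12 in the central one.

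Among paralog number 1, which acts in the hindbrain around the fourth rhombomere, 4 members were measured. The one with the most counts was hoxc1a (ENSDARG00000070337), at 368, 249.9, 246, 196 and 268 with phenol red, 411, 322, 196, 228 and 243 with guide RNA, and 439.8, 339, 231, 215 and 202 with guide RNA plus Cas9. In every group its highest library was S1, S6 or S11, and the groups overlapped. The mean of S1, S6 and S11 lay 0.60 above the group mean on the log2 scale for hoxc1a, 0.27 for hoxb1a, 0.30 for hoxb1b and 0.28 for hoxc3a, and only for hoxc1a among the anterior members did all 3 lie above the other 12 libraries. For hoxa1a (ENSDARG00000104307), needed in the mouse for early hindbrain segmentation, the values were 128, 124, 115, 110.1 and 135 with phenol red, 115, 111, 104, 129 and 118 with guide RNA, and 135, 158, 111, 133 and 107 with guide RNA plus Cas9. S12 was highest and S8 lowest, and no group stood apart. The remaining members, hoxb1a and hoxb1b, which in zebrafish share the specification of the fourth rhombomere and its facial motor neurons, ranged from 38.9 to 66.8 and from 32.7 to 85.1.

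Paralog number 2 gives the second pharyngeal arch its identity, and in zebrafish hoxa2b and hoxb2a share this task. The count of hoxb2a (ENSDARG00000000175) was 475, 403, 493, 428 and 475 with phenol red, 435, 413, 445, 451 and 436 with guide RNA, and 466, 443, 516, 438 and 445 with guide RNA plus Cas9. All 15 libraries lay within 1.28-fold of each other. For hoxa2b (ENSDARG00000023031) it was 323, 339, 363, 358 and 332 with phenol red, 333, 346, 326, 327 and 308 with guide RNA, and 357, 352, 339, 340.1 and 309 with guide RNA plus Cas9. This was the flattest member, with a range of 1.18-fold, and the groups overlapped for both genes.

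Paralog number 3 acts in the caudal hindbrain and the third pharyngeal arch. The count of hoxb3a (ENSDARG00000029263) was 2556, 2546, 2656, 2732 and 2797 with phenol red, 2784, 2708, 2591, 2764 and 2379 with guide RNA, and 2867, 2767, 2821, 2497 and 2577 with guide RNA plus Cas9. The 15 libraries lay within 1.21-fold, with S10 lowest and S11 highest. For hoxd3a (ENSDARG00000059280) the count was 484, 525, 615, 640.1 and 636 with phenol red, 591, 571, 609.6, 662 and 503 with guide RNA, and 634, 628, 673, 626 and 611 with guide RNA plus Cas9. S1 and S10 were its lowest libraries, and the groups overlapped. The other members, hoxa3a and hoxc3a, ranged from 908 to 1262 and from 94.7 to 246. In the RefSeq table the spans of hoxa3a, hoxb3a, hoxc3a, hoxd3a and hoxb1b hold other hox genes (hoxa5a; hoxb4a, hoxb5a and hoxb6a; hoxc4a, hoxc5a, hoxc6a and hoxc8a; hoxd4a; hoxb5b and hoxb6b), so that the split of reads between a span's genes is uncertain where transcripts overlap.

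Paralog number 4, whose front limit of expression lies in the last rhombomeres, was the flattest of the central numbers. The count of hoxb4a (ENSDARG00000013533) was 538, 493, 503, 485 and 552 with phenol red, 596, 475, 479.9, 553 and 447 with guide RNA, and 589, 562, 574, 506 and 479 with guide RNA plus Cas9. S6 was highest and S10 lowest, 1.33-fold apart. The other 2 members, hoxc4a and hoxd4a, ranged from 299.8 to 575 and from 373 to 537, and in both S1, S6 and S11 lay above all other libraries.

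From paralog number 5 on, the sums ranged more widely between libraries than those of numbers 1 to 4. Single members did not divide so cleanly: hoxb5a ranged 1.81-fold, less than hoxc1a at 2.24-fold and hoxc3a at 2.59-fold. In zebrafish the B-cluster genes of this number take part in placing the pectoral fin. The count of hoxb5a (ENSDARG00000013057) was 1316, 806, 1052, 858 and 839 with phenol red, 1352, 1099, 898, 939 and 815 with guide RNA, and 1232, 1135, 1017, 826 and 747 with guide RNA plus Cas9. S1, S6 and S11 were the 3 highest libraries and S15 the lowest. The other members ranged from 71.2 to 183 for hoxa5a, from 333 to 962 for hoxb5b and from 77.2 to 389 for hoxc5a.

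Paralog number 6 marks the cervical and anterior trunk levels. The count of hoxb6a (ENSDARG00000010630) was 238, 134, 164, 131 and 123 with phenol red, 272, 177, 138, 143 and 115 with guide RNA, and 191, 181, 149, 115 and 108 with guide RNA plus Cas9. Again S1, S6 and S11 lay above the other 12 libraries. For hoxb6b (ENSDARG00000026513) it was 144, 52.8, 72.3, 43.6 and 35.3 with phenol red, 217, 111, 74.4, 62.2 and 36.7 with guide RNA, and 116, 141, 54.4, 54.8 and 27.7 with guide RNA plus Cas9. The highest library, S6, held 7.82 times the count of the lowest, S15, and the groups overlapped. hoxc6a ranged from 27.5 to 183, whereas hoxc6b ranged only from 17.95 to 33.6, with a spread no larger than counting error.

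Paralog numbers 7 and 8 are thoracic genes in mammals. The count of hoxb7a (ENSDARG00000056030), the 1 member of its number, was 20.1, 11.01, 15.2, 10.9 and 7.25 with phenol red, 28.02, 18.1, 11.2, 8.02 and 11.9 with guide RNA, and 18.4, 13.1, 18.1, 8.98 and 9.89 with guide RNA plus Cas9. S6, S1 and S11 were highest and S5 lowest. For hoxb8a (ENSDARG00000056027) it was 144, 77.1, 108, 70.2 and 92.4 with phenol red, 224, 132, 86.5, 103 and 61.4 with guide RNA, and 136, 152, 99.8, 74.8 and 62.3 with guide RNA plus Cas9. S6 led, followed by S12, S1 and S11, and S10 was lowest. hoxb8b ranged from 11.004 to 59.8, and hoxc8a from 0 in S15 to 25.2 in S6, with 3 libraries at or under 3 reads.

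The posterior members had few reads, and 6 of the 11 had at least 1 library at or under 3 reads. The count of hoxd9a (ENSDARG00000059274) was 26.5, 15.4, 25.7, 15.7 and 15.4 with phenol red, 19.6, 19.2, 17.3, 19.1 and 31.2 with guide RNA, and 35.8, 22.7, 20.2, 7.98 and 17.8 with guide RNA plus Cas9. S11 was highest, S10 next and S14 lowest, so that S6 did not lead here. For hoxa10b (ENSDARG00000031337) it was 26.5, 8.81, 25.7, 25.4 and 9.06 with phenol red, 26.2, 17.05, 18.2, 17.05 and 10.1 with guide RNA, and 26.6, 20.98, 13.1, 16.95 and 12.9 with guide RNA plus Cas9. S11, S1 and S6 were highest, closely followed by S3 and S4. For hoxa11b (ENSDARG00000007009) it was 50.9, 14.3, 26.8, 18.1 and 9.06 with phenol red, 26.2, 14.9, 18.2, 12.03 and 13.8 with guide RNA, and 40.4, 23.6, 18.1, 9.97 and 9.89 with guide RNA plus Cas9. S1 and S11 lay above all others, and S3 was level with S6.

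The count of hoxd12a (ENSDARG00000059263) was 22.3, 12.1, 13.99, 9.68 and 4.53 with phenol red, 16.8, 6.39, 4.32, 6.02 and 9.17 with guide RNA, and 18.4, 11.4, 8.06, 5.98 and 7.92 with guide RNA plus Cas9. S1, S11 and S6 led, and S8 was lowest. For hoxa13b (ENSDARG00000036254), which with hoxa13a and hoxd13a is required for fin rays in zebrafish, it was 45.6, 15.4, 45.5, 16.9 and 10.9 with phenol red, 51.4, 22.4, 15.6, 8.02 and 10.1 with guide RNA, and 27.5, 17.5, 24.2, 14.96 and 11.9 with guide RNA plus Cas9. S6, S1 and S3 were highest, S9 was lowest, and the groups overlapped for every posterior member named here. The others ranged from 2.13 to 23.9 for hoxa9b, from 2.75 to 17.7 for hoxd10a, from 0.91 to 20.2 for hoxd11a, from 1.98 to 20.2 for hoxa13a and from 0.99 to 16.8 for hoxd13a. hoxb9a, the 1 posterior gene outside the A and D clusters, was at 0 in 5 libraries and at or under 3 reads in 12.

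**Figure D2:**
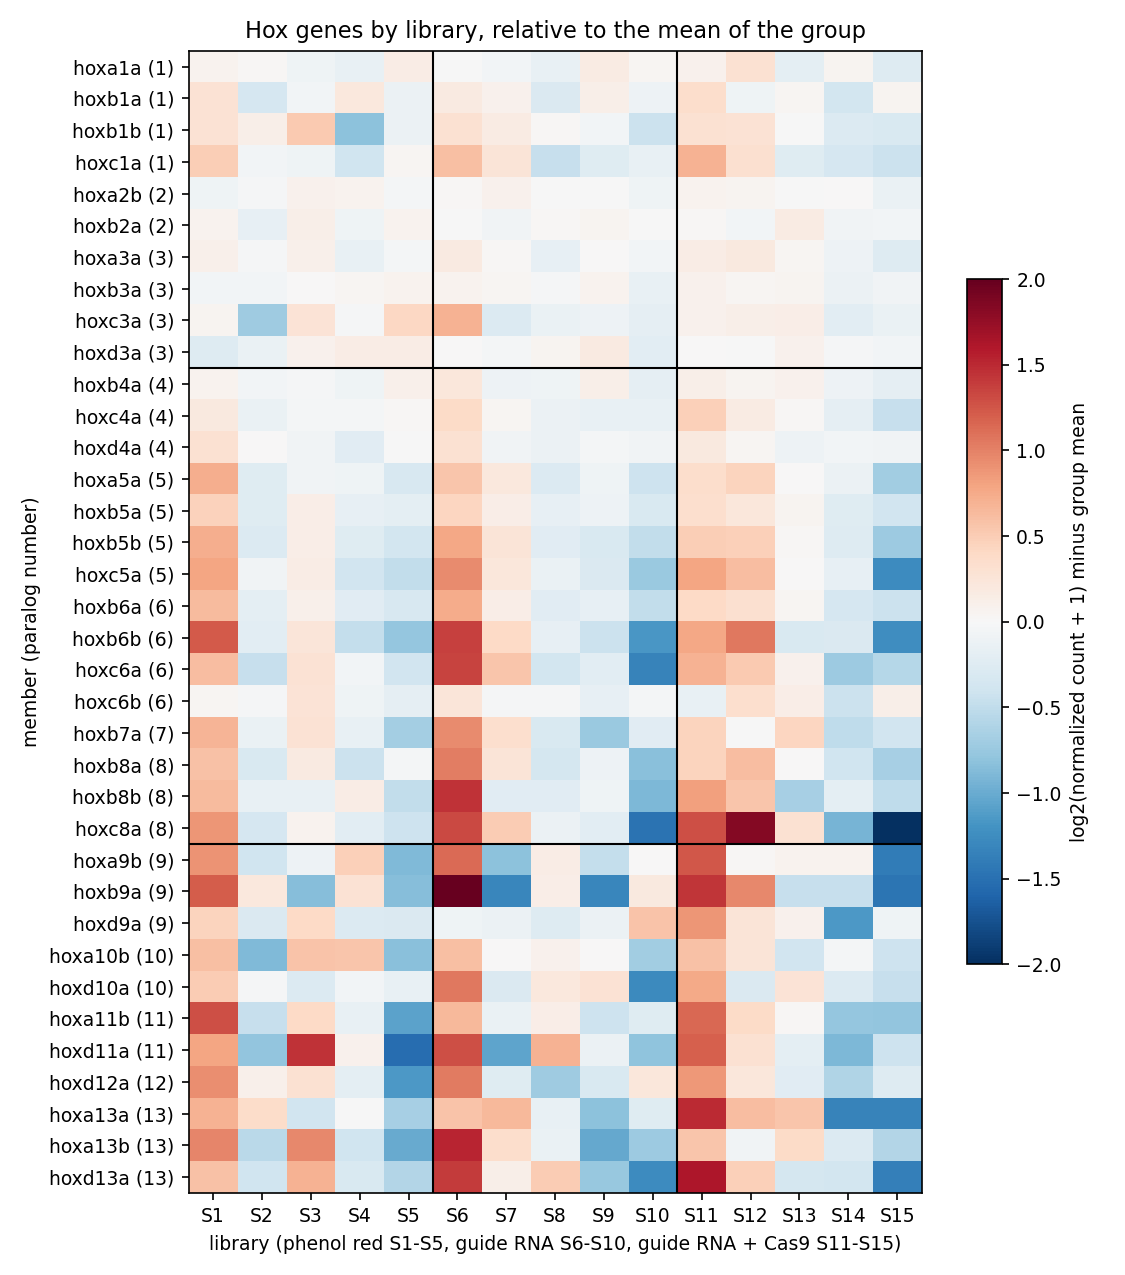
Each row is 1 hox gene with its paralog number and each column 1 library; the colour gives log2(normalized count + 1) minus the mean of the library's group, red above and blue below. Rows of paralog numbers 1 to 4 are pale apart from hoxc1a and a few others, while from number 5 on the columns S1, S6 and S11 are mostly red and S15 mostly blue.

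Pools of the same group had larger median SDs for paralog numbers 5 to 13 than for 2 to 4. The SD within groups, on the log2 scale, had a median of 0.15 over the anterior, 0.50 over the central and 0.80 over the posterior members, against 0.16 over 21869 other genes with a count of 10 or more in at least 5 libraries. By number, from 1 to 13, the median SD was 0.31, 0.08, 0.14, 0.16, 0.46, 0.58, 0.54, 0.67, 0.80, 0.59, 0.87, 0.67 and 0.87. The step lay between numbers 4 and 5, and number 1 stood above 2 to 4. Since low counts spread more by counting alone, each SD was set beside the counting error for the gene's reads. The ratio had a median of 2.21 for anterior, 3.62 for central and 1.64 for posterior members, and it passed 1.5 for 6 of 10, 13 of 15 and 8 of 11. The posterior members thus had the lowest median ratio. As counting error shrinks with depth, the ratio does not rank spread between classes: hoxb3a reached 2.92 with an SD of 0.08. In posterior members without a library at or under 3 reads, the SD exceeded counting error. The SD and counting error were 0.52 and 0.32 for hoxd9a, 0.58 and 0.34 for hoxa10b, and 0.74 and 0.32 for hoxa11b. They were 0.67 and 0.45 for hoxd12a and 0.83 and 0.30 for hoxa13b. How much of the larger posterior SD came from low counts was not computed. Within the central class, hoxb4a (mean count 522) and hoxb5b (mean count 567), a pair picked after their values were seen, had an SD of 0.13 and 0.49 at similar depth. The classes overlapped, with hoxc1a at 0.42, hoxb1b at 0.38 and hoxc3a at 0.35 among the anterior members, and hoxb4a at 0.13, hoxd4a at 0.16 and hoxc6b at 0.22 among the central ones.

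**Figure D3:**
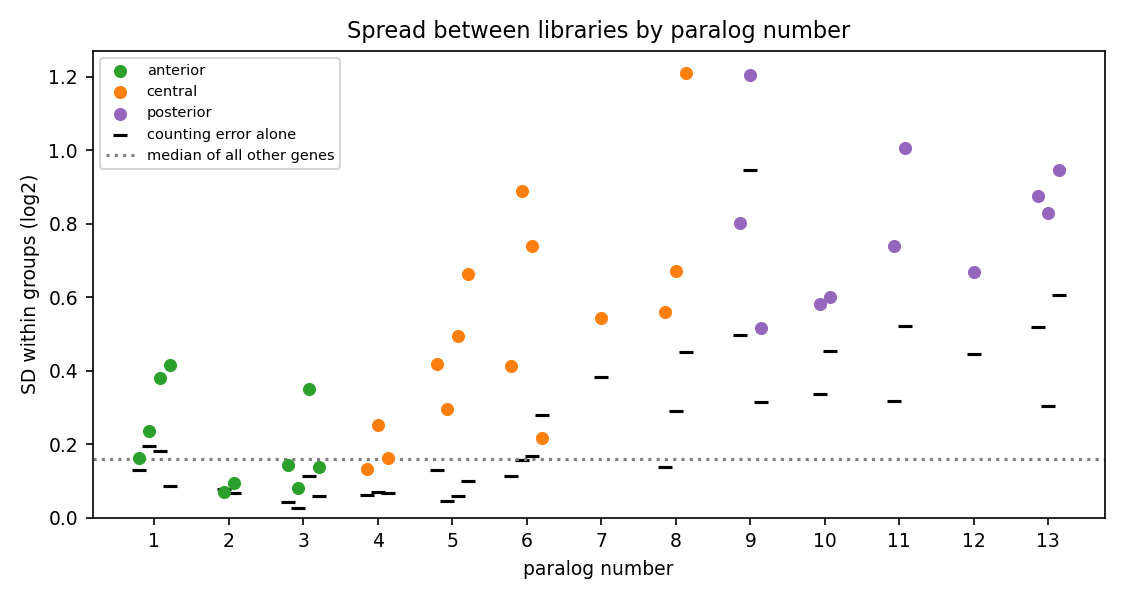
SD within groups of log2(normalized count + 1) for each hox gene (vertical axis) by paralog number (horizontal axis), with the SD that counting error alone would give as a dash and the median of all other genes, 0.16, as a dotted line. Numbers 2 to 4 lie near the dotted line apart from hoxc3a and hoxc4a, and numbers 5 to 13 above it.

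Libraries S1, S6 and S11 all lay above the other 12 for 12 of the 33 members that had a count of 10 or more in at least 5 libraries, where 9.25% of all 21902 such genes did so. These were hoxc1a; hoxc4a, hoxd4a, hoxb5a, hoxb5b, hoxc5a, hoxb6a and hoxb7a; and hoxa9b, hoxa10b, hoxd10a and hoxd12a. The 3 libraries had been singled out with genes outside the hox family, and no test was made of this count. Of these members, hoxa9b, hoxd10a and hoxd12a reached 10 in 5 libraries only with S1, S6 and S11 counted, so the filter favoured them. The same holds for hoxa13a and hoxc8a, which are not among the 12. All genes passed through the same filter. Over the posterior members the mean of S1, S6 and S11 lay a median of 1.02 above the group mean on the log2 scale, over the central members 0.66 and over the anterior members 0.10. These medians include hoxb9a, hoxd11a and hoxd13a, which did not pass the filter and lay 1.64, 1.09 and 1.19 above.

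Some markers of other tissues moved with the same libraries, while others of the same lists did not. The actinodin genes and1, and2 and and3 encode fibre proteins of the fin fold, and and2 had counts of 5165, 1622, 4175, 2638 and 919 with phenol red, 4938, 2261, 2173, 1302 and 1519.5 with guide RNA, and 5614, 3398, 2606, 1691 and 1533 with guide RNA plus Cas9. S1, S6 and S11 were highest, and S3 was close behind. For cdh17, a cadherin of the pronephros, the trunk kidney, the counts were 739, 157, 326, 257 and 337 with phenol red, 786, 261, 284, 98.3 and 166 with guide RNA, and 701, 308, 238, 97.7 and 192 with guide RNA plus Cas9. S1, S6 and S11 were more than 2-fold above every other library, and S3 lay among the other libraries. cdh17 was not the listed pronephros gene with the most counts. That gene, slc4a4a, had a mean of 6345 and was lowest in S1, at 4825. trpm7 of the same list held 1062, 1117 and 1075 in S1, S6 and S11, near its low end. Of the fin bud list, fgf24 ranged only 1.25-fold. For tfa, the liver gene of transferrin, they were 16793, 499, 4484, 2744 and 2836 with phenol red, 12343, 1978, 3840.1, 1778 and 1607 with guide RNA, and 11839, 6086, 4295, 216 and 1613 with guide RNA plus Cas9. S1, S6 and S11 led and S14 was lowest.

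Over whole marker lists, S1, S6 and S11 lay above the other 12 libraries for 4 of 9 pronephros genes, 5 of 13 gut, liver and pancreas genes, 2 of 9 pectoral fin bud genes, 0 of 6 tailbud and somite genes and 0 of 3 germ cell genes. Among all 21902 genes with a count of 10 or more in at least 5 libraries, 9.25% lay above. The lists did not pass through that filter, and they were chosen with earlier results of these data known. Their counts are therefore a description and were not tested against this share. S1, S6 and S11 lay below the other 12 for 5 of 17 forebrain, midbrain and eye genes and 2 of 6 tailbud and somite genes (tbx16 and tbx6). This held for 0 genes of the pronephros, digestive, fin bud and germ cell lists. What share of all genes lay below was not computed, so the counts below have no background. So the trunk lists did not all move one way. The summed pronephros counts ranged from 7642 to 9606 with phenol red, from 7679 to 9274 with guide RNA and from 8437 to 10240 with guide RNA plus Cas9. In the same order the gut, liver and pancreas sums ranged from 1705 to 21800, from 2718 to 17640 and from 1086 to 15750, and the fin bud sums from 3556 to 9638, from 4358 to 9574 and from 4638 to 10980. The tailbud and somite sums ranged from 286 to 357, from 211 to 368 and from 249 to 354. Single genes weigh heavily in such sums, which are not levels of a tissue. The mean count was 6345 for slc4a4a of the pronephros list, 4863.5 for tfa and 2770 for and2. Within the pronephros list, cdh17 ranged 8.05-fold and pdzk1 16.0-fold, while slc4a4a ranged 1.53-fold. Only listed genes found in the deposited values are counted: 9 of 10 for the pronephros, 6 of 11 for tailbud and somites and 3 of 6 for germ cells. The digestive and fin bud lists were complete. All 23009 genes of these values had reads in each comparison, so that absence of a marker could not show here. 3 digestive genes, cel.1, ela3l and fabp1b.1, were at 0 in 1 or 2 libraries. The part of these tissues in the hox counts was not tested.

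The genes most like the posterior members were sought over the 15 libraries among genes with a mean count of 50 or more. The measure was Pearson's r of log2(value + 1), centred on group means, with the summed log2 values of 8 posterior members. These had a count of 10 or more in at least 5 libraries. hoxa9b, hoxd10a, hoxd12a and hoxa13a met this only with S1, S6 and S11 counted, which favours likeness carried by those libraries. The 10 highest were acad11, rraga, and2, fer1l4, and3, gata4, haao, fhl1a, and1 and kmo, with r between 0.94 and 0.97. They include all 3 actinodin genes, the heart and gut transcription factor gene gata4, and haao and kmo of the kynurenine pathway. For and2, r was 0.96 (Spearman's rho 0.96), 0.95 without the 2 libraries farthest from the median, and 0.94 over the 12 libraries other than S1, S6 and S11. For cdh17, r was 0.83 over 15 libraries and 0.46 over those 12, so that its likeness rested in part on S1, S6 and S11. All these libraries share their depth and composition across genes, and the median r over all genes compared was -0.10.

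The 15 central members, ranked the same way after their values were seen, shared 2 of these 10 genes, rraga and haao. Their list was tnni2a.4, klhl41b, rraga, kcnk6, adssl1, tnni1b, haao, bhmt, gstp2 and tpma, with r between 0.94 and 0.98, and tnni2a.4, klhl41b, tnni1b and tpma encode muscle proteins. For tnni2a.4, a troponin I gene of fast muscle, r was 0.98 and stayed at 0.96 over the 12 libraries, while for and2 it was 0.85 and 0.68. Individual libraries show the contrast: S3 held 4175 counts of and2 and a posterior sum of 176 but a central sum of 3742, whereas S12 held 3398 counts of and2, a posterior sum of 145 and a central sum of 4489. For fabp2 of the digestive list, r was 0.92 and 0.81 with the central and 0.89 and 0.63 with the posterior members. Over the 12 libraries, r with and2 exceeded r with cdh17 for 10 of the 11 posterior, 10 of the 15 central and 3 of the 10 anterior members, and r with and2 was 0.94 for hoxa11b and 0.85 for hoxa13b. As and2 ranked 3 and cdh17 334 by likeness to the posterior members, the posterior count was largely set by this choice of genes. Members share their libraries and are not replicates. With counts this low, r of single posterior members is only a description.

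**Figure D4:**
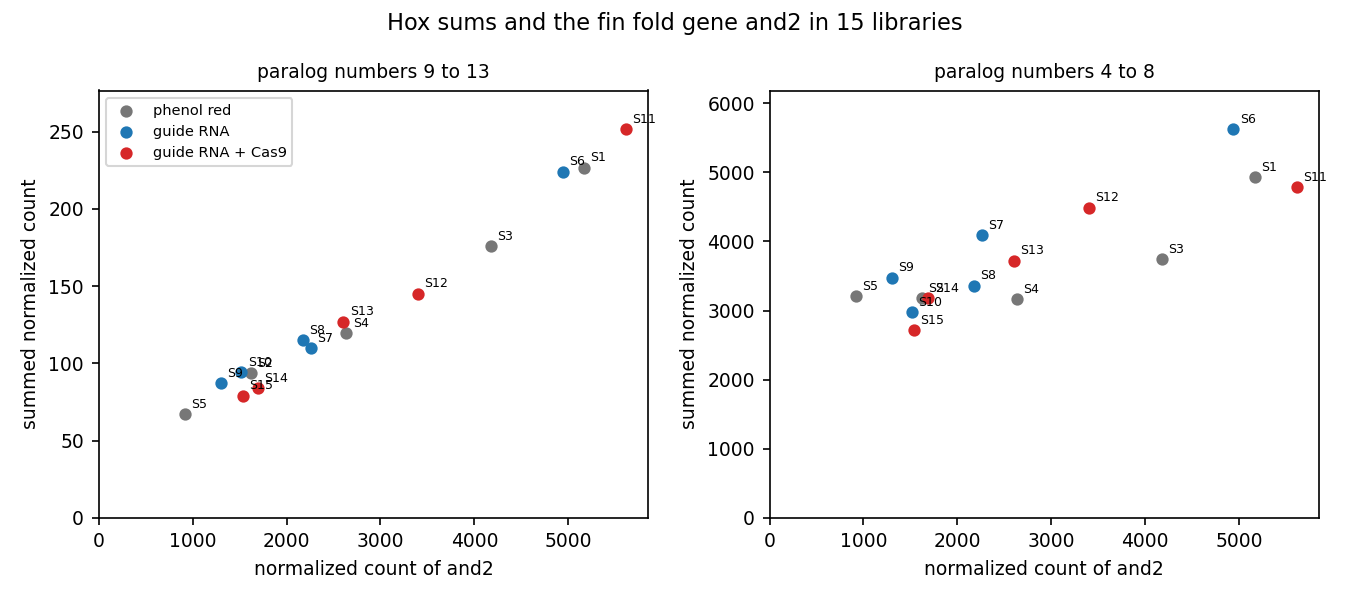
Summed normalized counts of the posterior (left) and central (right) hox genes (vertical axes) against the count of the fin fold gene and2 (horizontal axes) in the 15 libraries, coloured by group. Libraries with more and2 mostly have larger posterior sums, while in the right panel S3, at 4175 counts of and2, lies with libraries of lower and2.

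The comparison of guide RNA plus Cas9 with guide RNA asks what the nuclease with its guide changed in the head. No hox gene was called: of 29 members tested, 0 reached a limma adjusted p under 0.05, where 0.00463% of all 21590 genes did so, the 1 gene being ncapg2. At an unadjusted p under 0.05 there were 0 members, against 0.917% of all genes, and 0 members had groups that did not overlap, against 0.232%. On the recovered reads DESeq2 called 0 of 36 members (0.00435% of all genes) and edgeR 0 of 29 (0.00462%), and at an unadjusted p under 0.05 they found 0 and 0 members, against 0.839% and 0.865% of all genes. The 29 log2 fold changes lay between -0.31 and 0.16 with a median of -0.02, and the median of all genes was 0.00. The smallest p was that of hoxd3a, at 0.12 ± 0.07 (SE; limma adjusted p = 1), followed by hoxb2a at 0.08 ± 0.06 and hoxa1a at 0.15 ± 0.12.

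Without the library sets in the fit, the precision of this comparison differed by class, but not in strict order of paralog number. In that fit the SE was 0.53 for hoxb6b and 0.28 for hoxa10b. The 95% interval lay within 1.5-fold for all 10 anterior members, for 4 of 14 central members tested and for 0 of 5 posterior members tested, against 85.6% of all genes. Within 2-fold it lay for 10, 10 and 3. hoxa9b, hoxb9a, hoxc8a, hoxd10a, hoxd11a, hoxd12a and hoxd13a had too few counts to enter the test. For the other 8 posterior members, tested or not, this fit did not bound a 2-fold difference. It leaves out the library sets, as do the intervals of the comparisons below. With the sets in the fit, the SE of the 3 members with the smallest p was 0.15 for hoxb6b, 0.06 for hoxd3a and 0.10 for hoxb6a. Without the sets it was 0.53, 0.07 and 0.23. A choice by small p favours a small SE, so these 3 do not stand for the family, and none of them is posterior. Intervals with the sets were not computed.

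Against phenol red, guide RNA plus Cas9 likewise gave no hox call. Of 29 members tested 0 were called by limma, where 0.00463% of 21580 genes were. At an unadjusted p under 0.05 there were 0 members against 2.29% of all genes, and the groups did not overlap for 0 members against 0.426%. DESeq2 called 0 members (0.00869% of all genes) and edgeR 0 (0.00463%), and at an unadjusted p under 0.05 each found 0, against 2.47% and 2.3%. The log2 fold changes lay between -0.29 and 0.14 with a median of 0.02, against 0.00 for all genes. The members with the smallest p were hoxd3a at 0.14 ± 0.08 (SE; limma adjusted p = 1.0), hoxb4a at 0.07 ± 0.07 and hoxa13b at -0.29 ± 0.40. The value of hoxd3a shares the Cas9 libraries with the first comparison. Intervals lay within 1.5-fold for 9 of 10 anterior, 7 of 14 central and 0 of 5 posterior members, with hoxa13a untested in place of hoxd12a.

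Guide RNA alone against phenol red asks what the guide did without the nuclease. Of 28 members tested 0 were called, where 0% of 21601 genes were, and 0 members had an unadjusted p under 0.05 against 1.04% of all genes. DESeq2 and edgeR also called 0 members (0% of all genes each), and at an unadjusted p under 0.05 each found 0, against 0.995% and 1.02%. Groups that did not overlap were found for 0 members, against 0.204%. The log2 fold changes lay between -0.38 and 0.45 with a median of 0.02, against 0.01 for all genes. hoxa2b had the smallest p, at -0.06 ± 0.07 (SE; limma adjusted p = 1), followed by hoxb6b at 0.45 ± 0.48 and hoxa1a at -0.09 ± 0.10. Intervals lay within 1.5-fold for 10 of 10 anterior, 6 of 14 central and 0 of 4 posterior members, against 84.6% of all genes.

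When the library sets entered limma as a block, 0 members were called in any comparison, where 0.0139%, 0.00927% and 0.0185% of all genes were, in the order above. At an unadjusted p under 0.05 there were 0, 0 and 1 members, against 4.55%, 9.12% and 7.71% of all genes. The 1 member was hoxb6b for guide RNA against phenol red, at 0.45 ± 0.15 (SE; limma adjusted p = 0.43), higher with guide RNA in 5 of 5 sets. As 1 of 28 members tested it does not exceed the background. With guide RNA plus Cas9 hoxb6b was higher than with phenol red in 2 of 5 sets. By the adjusted p of the authors' deposited table, no hox gene was called in any comparison (0 of 36). Of all 23009 genes, 1, 2 and 0 were called there, in the order above.

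**Figure D5:**
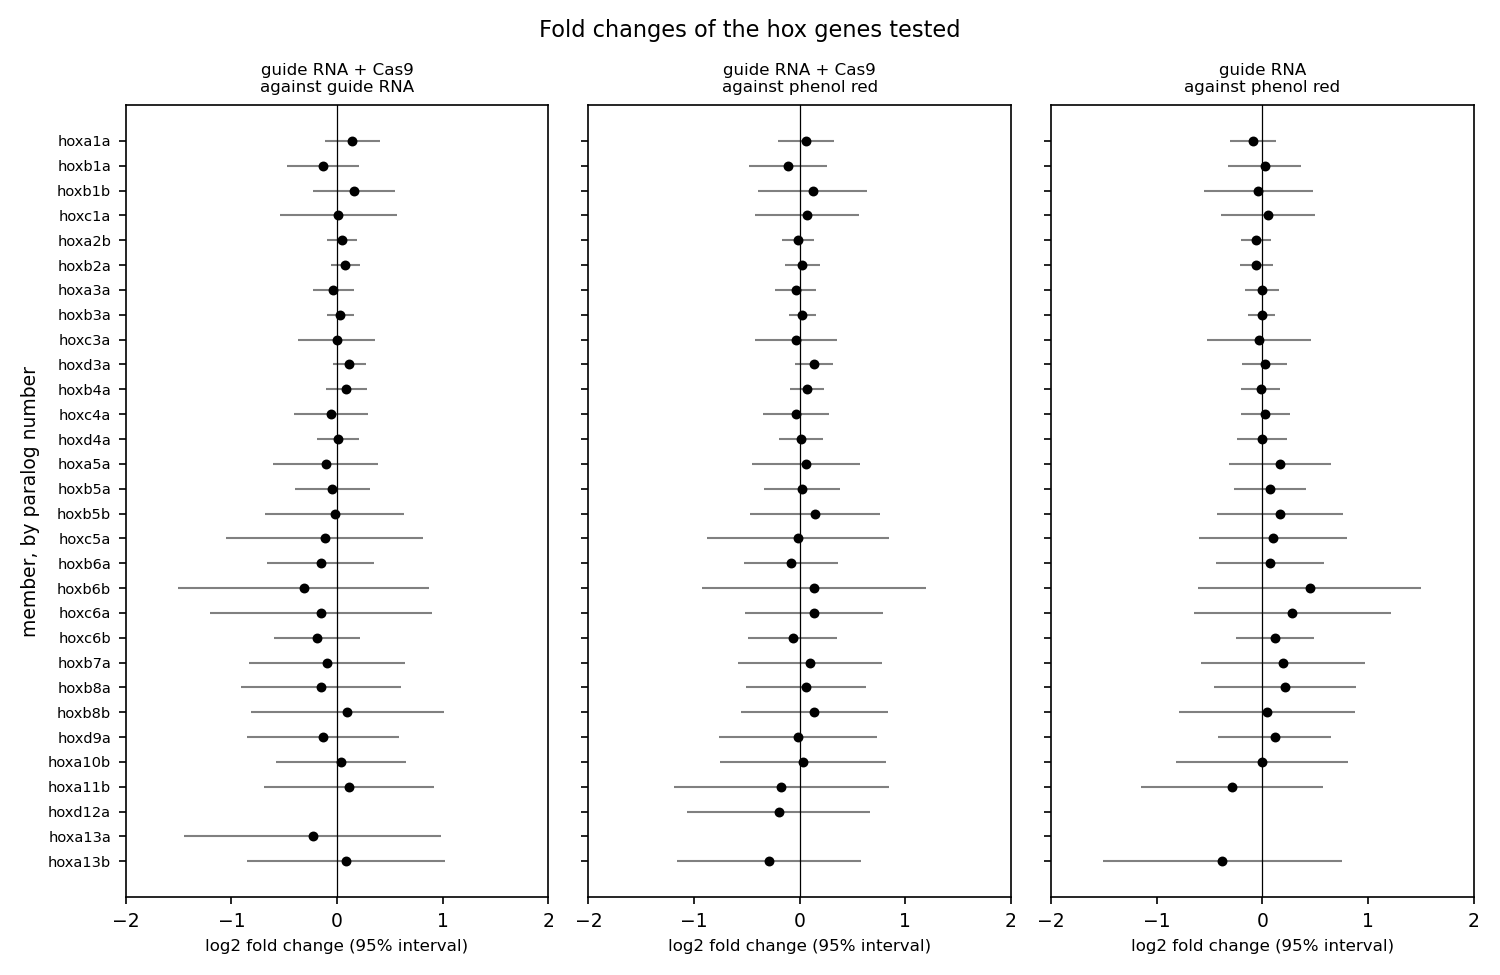
Log2 fold change (horizontal axes) with its 95% interval for every hox gene tested (vertical axis, ordered by paralog number) in the 3 comparisons, from limma without the library sets. All intervals cross 0, and they widen from the anterior members, mostly within 1.5-fold, to the central and posterior members.

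Genes that work with the hox proteins or control them were counted in the same fits, and 0 were called in any comparison. The 14 cofactor genes of the Pbx, Meis and Prep families, whose proteins bind DNA together with Hox proteins, had median log2 fold changes of 0.03, 0.04 and 0.02 in the order above. The 12 tested genes of hindbrain segmentation and upstream control, such as egr2b and mafba, were at medians of 0.04, 0.04 and 0.01. For the 23 genes of retinoic acid supply, breakdown and reception, the signal that sets front limits of hox expression, the medians were 0.03, 0.03 and 0.00. Among them rxrgb, a retinoid X receptor gene, had the smallest unadjusted p in the first comparison, at 0.30 ± 0.08 (SE; limma adjusted p = 1). The 33 Polycomb and Trithorax genes, which keep hox genes silent or active, had medians of 0.02, 0.05 and 0.04, and 5 of them (33 tested) had an unadjusted p under 0.05 for guide RNA plus Cas9 against phenol red, where 2.29% of all genes did. S1, S6 and S11 lay below the other 12 libraries for 5 of the 33, and the share of all genes that did so was not computed. The even-skipped genes next to the clusters had medians of 0.05, 0.04 and 0.02 over the 3, 3 and 2 genes tested.

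Between pools these lists differed in their spread. The median SD within groups was 0.11 for the cofactors, 0.14 for the hindbrain genes, 0.12 for the retinoic acid genes and 0.13 for the Polycomb and Trithorax genes, on the log2 scale. aldh1a2, which makes retinoic acid, ranged 1.33-fold over the 15 libraries, and evx2, the neighbour of the D cluster, 1.37-fold. The median SD of the 3 even-skipped genes was larger, at 0.32, with evx1 ranging 2.49-fold and eve1, at few reads, having an SD of 0.71. Within the hindbrain list, hnf1ba and hnf1bb, which also act in the kidney, ranged 27.7-fold and 5.77-fold and were highest in S1, S6 and S11. So was cdx1b, of the Cdx family that acts upstream of posterior hox genes, at 14.8, 24.3 and 23.0 in S1, S6 and S11 and at most 9.62 in the other libraries. For 3 genes of this list, irx7, epha4a and efnb2a, S1, S6 and S11 were the lowest libraries, and the share of all genes that did so was not computed.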

How the data were processed

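Gene expression was measured by stranded mRNA sequencing (50 bp reads) in 15 zebrafish libraries. The submitters' processing notes name STAR, HTSeq, DESeq2, bcl2fastq, cutadapt and Trim Galore, while their versions, the build, the annotation and the strand setting are not stated there. Per gene and library, the deposited value is a normalized signal (count divided by 1 size factor). The authors' tables also hold log2 fold changes with standard errors, a test statistic (score) and p-values. Every signal was a whole multiple of the value of 1 read within 0.001 (100% of values), so reads were recovered by division. A column's group followed from the pair of tables it occurs in.

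limma 3.58.1 in R 4.3.3 (trend, robust) was fitted to log2(value + 1) of genes reaching 10 in 5 or more of the compared libraries, and p was adjusted by Benjamini-Hochberg over all genes tested, threshold 0.05. Fold changes on this scale understate those of low genes, and p-values weigh a difference of group means against the spread between pools. Library sets were the best of 14400 groupings of 1 library per group, by genes outside the hox family; column order was not used, and each set turned out to hold the libraries at the same place in the column order of their groups. DESeq2 1.42.0 and edgeR 4.0.16 (quasi-likelihood) ran on the recovered reads. Members named with all values have the most counts of their paralog number, a call, or 1 of the 3 smallest p of a comparison. The difference in ncapg2 between Cas9 and each other group was tested by exact permutation, two-sided (p = 0.0079, the smallest that 252 regroupings allow). The members and lists were chosen with earlier results of these data known. No sequences of the members were at hand.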

Additional observations from a re-analysis of the deposited data

Results flagged for a closer look

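Within groups, 102 sets of 5 values (members and sums) were checked for a library far from the others, a rule that chance meets in about 1 in 20 groups of 5. It was met 3 times, each time with guide RNA. hoxd9a stood at 31.2 in S10, with the next library at 19.6. The sum of the posterior members stood at 224.2 in S6, with the next at 115. The sum of paralog number 4 stood at 1694 in S6, with the next at 1368.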

How the results depend on the processing

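Calls of hox genes stayed at 0 in each comparison under every alternative run, namely a pseudocount of 0.5 or 5, a filter of 50 or none, TMM rescaling, 1 fit of the 3 groups, non-robust moderation, edgeR, DESeq2, the block of library sets, the removal of S1, S6 and S11 (added after seeing the data) and each library left out. Over all genes, the block gave 3 calls for Cas9 with guide against guide alone, 2 for Cas9 with guide against phenol red, where DESeq2 also gave 2, and 4 for guide alone against phenol red, while limma without the block gave 1, 1 and 0. The causes were not tested. Counted from paralog number 6, the posterior share was 6.08% with phenol red, 6.71% with guide RNA and 6.04% with guide RNA plus Cas9, since the definition then holds more genes. Leaving out 1 library moved the share between 1.22 and 1.56%, 1.11 and 1.34%, and 1.14 and 1.45%. Fold changes without 1 library were listed for the 7 members with the smallest p, and the widest range was that of hoxb6b for guide alone against phenol red, from 0.11 to 0.75. No paired analysis was possible because the value columns carry none of the replicate numbers of the titles; the block stands on library sets found in the values, not on labels. Levels per coding length were not run, as no lengths were at hand. The posterior members had few reads, 74 to 274 in all per library, and what part of their spread came from depth was not computed.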
